A study of Mus musculus with 6 samples.

Results

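The 43 genes examined here are interferon-stimulated genes, whose transcription rises when cells sense interferon. They were chosen by name, with earlier results of these 6 lungs in view, and 40 of them had at least 1 probe set of their own, so the comparison between genotypes and the spread among wild-type lungs are given as descriptions. Where several probe sets named a gene alone, the brightest on average stood for it, and 18193 genes were measured in this way. Isg15, Oas1g and Ifi44 had no probe set naming them alone and are not analysed here. The samples were lungs, microdissected from embryos on E16.5, a stage before birth when alveolar cell types are emerging, on a mixed strain background, 3 homozygous for loss of Hopx (Hopx -/-) and 3 wild-type (Hopx +/+), each a biological replicate on its own array. The labels give no treatment, sex, litter or description of the Hopx allele. Hopx encodes a small homeodomain protein that binds no DNA itself and marks the flat type I cells of the alveolus.

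Type I interferons bind the receptor chains encoded by Ifnar1 and Ifnar2, whose kinases JAK1 and TYK2 activate STAT proteins. STAT2 works with IRF9 in a complex that binds the interferon-stimulated response element in the promoters of target genes. The products include sensors of viral RNA, enzymes and GTPases that block viral replication, and IRF7, which in turn drives interferon genes. Type II interferon acts through the gamma-activated site, and guanylate-binding and immunity-related GTPases respond to it strongly. Many of these genes have low but measurable transcripts in tissue without infection.

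RefSeq promoter windows (GRCm38.p6, the C57BL/6J reference, 250 bases before to 50 after the transcript start) were on hand for 32 of the 43 genes. The response element was searched as GAAA, any 2 bases and GAAA on both strands (so also as TTTC, any 2 bases and TTTC), with overlapping matches counted, and 17 of the 32 genes held it (53.1%), 9 of them at least 2 copies. It was present in 3.99% of all 27025 genes with a window. The gamma-activated site, searched as TTCNNNGAA, which reads alike on both strands, was found in 7 of the 32 (21.9%) and in 9.55% of all genes. A match is a description of the letters, and the lungs came from a mixed background that may differ from the reference. The 6 genes with the largest spread among wild-type lungs that also hold the first motif are shown, so that their promoters stand beside the values that follow. Oasl2 and Irf7, which also spread widely, have a window without a match. The sequences are the 150 bases before the transcript start, 5′ to 3′ on the strand of the gene, with each match in capitals. The Oas3 stretch is chr5:120777660-120777809 (minus strand), with its match starting at position -75 from the transcript start. The Ifit1 stretch is chr19:34640739-34640888 (plus strand), with matches at -104 and -85. The Rsad2 stretch is chr12:26456453-26456602 (minus strand), with a match at -120, and the Gbp3 stretch is chr3:142559894-142560043 (plus strand), with overlapping matches at -45 and -39. The Oas1a stretch is chr5:120907526-120907675 (minus strand), with overlapping matches at -20 and -14, and the Bst2 stretch is chr8:71537473-71537622 (minus strand), with overlapping matches at -130 and -124.
Oas3: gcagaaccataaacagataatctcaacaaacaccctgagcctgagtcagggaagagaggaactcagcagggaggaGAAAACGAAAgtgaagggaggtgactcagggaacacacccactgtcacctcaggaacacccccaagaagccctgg
Ifit1: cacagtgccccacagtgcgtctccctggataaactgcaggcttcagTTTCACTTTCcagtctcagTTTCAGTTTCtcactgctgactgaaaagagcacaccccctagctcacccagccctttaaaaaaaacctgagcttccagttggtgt
Rsad2: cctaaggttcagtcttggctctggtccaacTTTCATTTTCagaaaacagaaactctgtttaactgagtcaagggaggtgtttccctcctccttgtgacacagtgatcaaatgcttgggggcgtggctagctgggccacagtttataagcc
Gbp3: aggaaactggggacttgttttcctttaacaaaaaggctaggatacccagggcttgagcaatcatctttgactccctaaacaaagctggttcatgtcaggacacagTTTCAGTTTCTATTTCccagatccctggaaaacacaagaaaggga
Oas1a: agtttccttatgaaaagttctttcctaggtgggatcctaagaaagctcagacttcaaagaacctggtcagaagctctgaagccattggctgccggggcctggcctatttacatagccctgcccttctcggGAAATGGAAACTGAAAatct
Bst2: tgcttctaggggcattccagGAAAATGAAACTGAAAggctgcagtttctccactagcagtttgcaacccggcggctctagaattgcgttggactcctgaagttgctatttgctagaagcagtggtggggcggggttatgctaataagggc
In 4 of these 6 stretches there are 2 matches, and in Oas3 and Rsad2 there is 1. The median SD among wild-type lungs was 0.48 (log2) over the 15 measured genes that hold it and 0.51 over the 14 measured genes with a window that does not.

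Values are log2 expression values as deposited, so a difference of 1 is a doubling of signal. Both Hopx probe sets were far lower in the Hopx-null lungs (10.65 ± 0.28 against 4.71 ± 0.21 and 12.40 ± 0.13 against 10.49 ± 0.15, SD, n = 3), the only 2 of 45037 probe sets (0.00444%) that limma (eBayes, Benjamini-Hochberg) called at an adjusted p under 0.05. That count ranged from 1 to 23 when 1 lung was left out, at 23 without wild-type replicate 1, 12 without Hopx-null replicate 1 and 1 without any of the other 4. Lung epithelial markers were present as labelled, with all 8 above the median of all probe sets (6.69). Lower quartiles of the arrays lay between 4.24 and 4.30, near background signal. Correlations between lungs were at least 0.989.

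The interferon-stimulated genes differed most among the wild-type lungs themselves. Wild-type replicate 3 read highest, wild-type replicate 1 next and wild-type replicate 2 lowest at 33 of 40 genes, an order held by 18.4% of all genes. Wild-type replicate 3 was the highest of all 6 lungs at 34 of 40 genes, against 21.3% of all genes. Wild-type replicate 2 was the lowest of all 6 at 20 of 40, against 14% of all genes. Both wild-type replicates 1 and 3 lay above every Hopx-null lung at 32 of 40 genes, against 10.9% of all genes. Wild-type replicate 2 lay at or below the highest Hopx-null lung at 33 of 40. That is near the share of all genes (77.8%), and nothing is read from it. The wild-type genotype thus held both the highest and the lowest lungs. In the median deviations given below, the Hopx-null lungs lay closer to wild-type replicate 2 than to the other wild-type lungs.

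**Figure D1:**
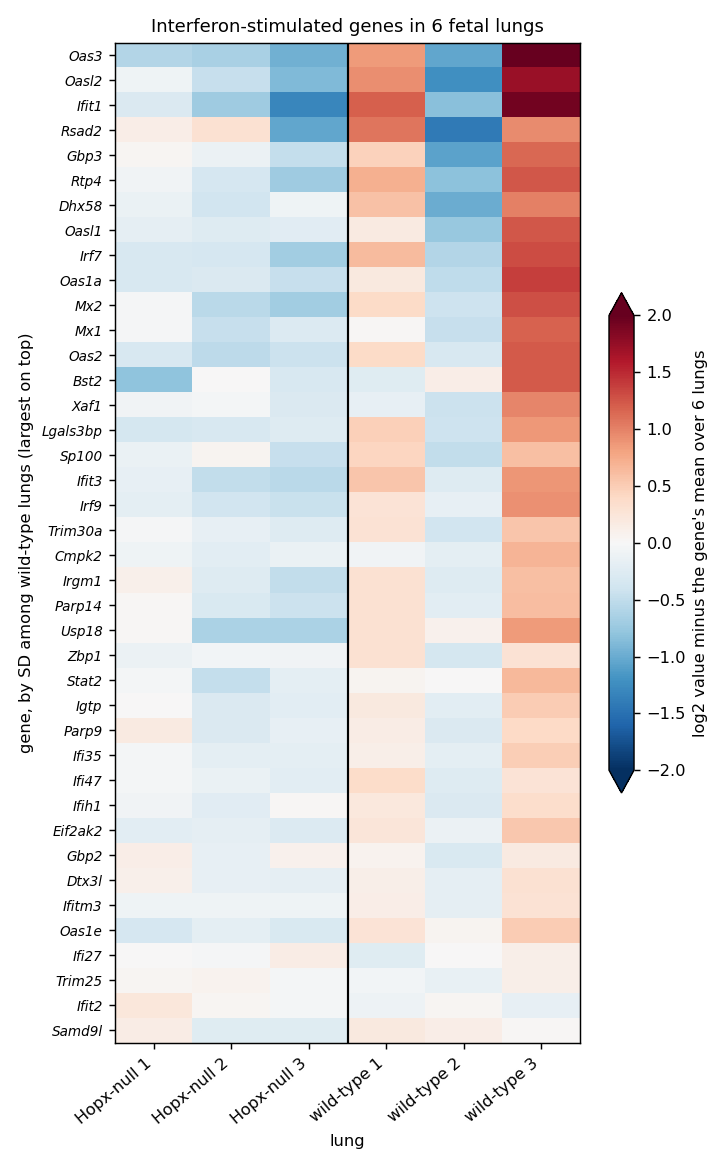
Heat map of 40 interferon-stimulated genes (rows, by SD among wild-type lungs) in 6 lungs (columns); colour is the log2 value minus the gene's mean over the 6 lungs, with values beyond 2 at the end of the scale. Wild-type replicate 3 is red at most genes and highest at 34 of 40, and wild-type replicate 2 is blue at most of the upper rows.

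Relative to each gene's own mean, the median over the 40 genes was 0.67 in wild-type replicate 3, 0.28 in wild-type replicate 1 and -0.29 in wild-type replicate 2. It was -0.07, -0.25 and -0.27 in Hopx-null replicates 1 to 3. Over all genes these medians lay between -0.01 and 0.01. The median SD among wild-type lungs was 0.48 over the 40 genes and 0.13 over all genes, and among Hopx-null lungs 0.16 and 0.13. The wild-type SD exceeded the Hopx-null SD at 38 of 40 genes, against 53.4% of all genes, with Ifit2 and Samd9l as the exceptions. A wild-type SD above 0.5 was found at 19 of 40 genes (5.22% of all genes) and a Hopx-null SD above 0.5 at 2 of 40, Rsad2 and Ifit1 (2.54% of all genes). Without wild-type replicate 2 the median wild-type SD was 0.26, against 0.11 over all genes.

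**Figure D2:**
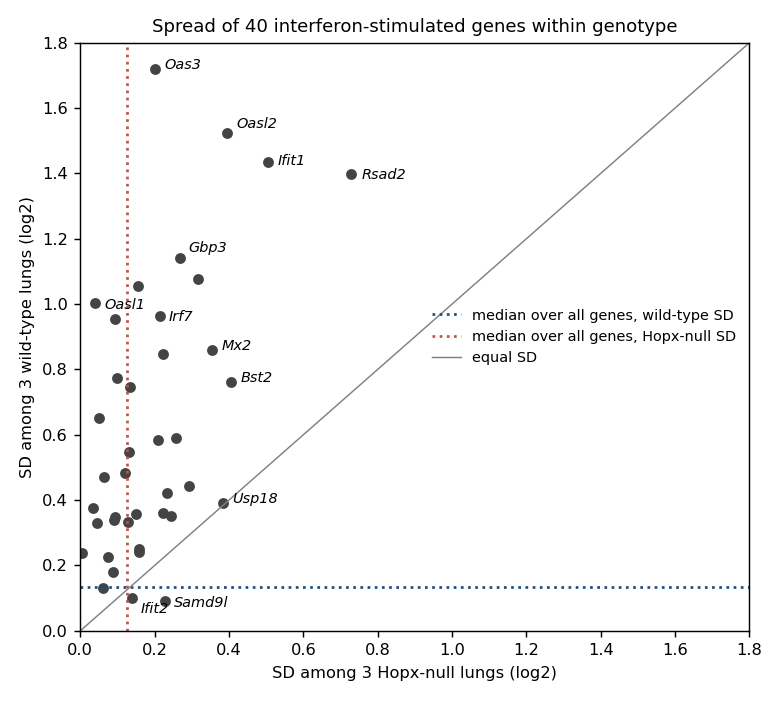
SD among 3 wild-type lungs (vertical, log2) against SD among 3 Hopx-null lungs (horizontal, log2) for 40 interferon-stimulated genes, with dotted lines at the medians over all genes (0.13 on both axes). All points but Ifit2 and Samd9l lie above the line of equal SD, and Oas3 is highest at 1.72.

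Between genotypes, 36 of 40 genes had a lower mean in Hopx-null lungs, against 47.8% of all genes, and the median difference was -0.42 against 0.01 over all genes. None passed limma (eBayes, Benjamini-Hochberg over all probe sets), where the adjusted p of the 40 genes lay between 0.878 and 0.979. At an unadjusted p under 0.05 there were 6 genes, all lower, against 1.64% of all genes lower at that level. The genotypes did not overlap at 6 of 40 genes, all lower in Hopx-null lungs, against 4.31% of all genes lower in this way and 6.21% higher. These shares come from the contrast that was in view when the genes were chosen, and nothing is read from them. Leaving out wild-type replicate 3 gave a median difference of -0.17, and leaving out wild-type replicate 2 gave -0.68. Groups of 2 and 3 lungs separate more often than groups of 3, so each count with a lung left out stands beside its own share. Without wild-type replicate 2, 32 of 40 genes were lower with no overlap, against 10.9% of all genes, and 1 was higher. These 32 are the genes given earlier with wild-type replicates 1 and 3 above every Hopx-null lung, so the count is no further result. Without Hopx-null replicate 1, 11 genes were lower with no overlap, against 11.7% of all genes. The genes lower at an unadjusted p under 0.05 numbered 30 without wild-type replicate 2, against 2.98% of all probe sets. They numbered 4 without wild-type replicate 1 (2.11%), 2 without wild-type replicate 3 (1.24%), and 1 each without Hopx-null replicate 2 (1.49%) and 3 (1.33%), and no gene passed the adjusted threshold in any of these fits.

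**Figure D3:**
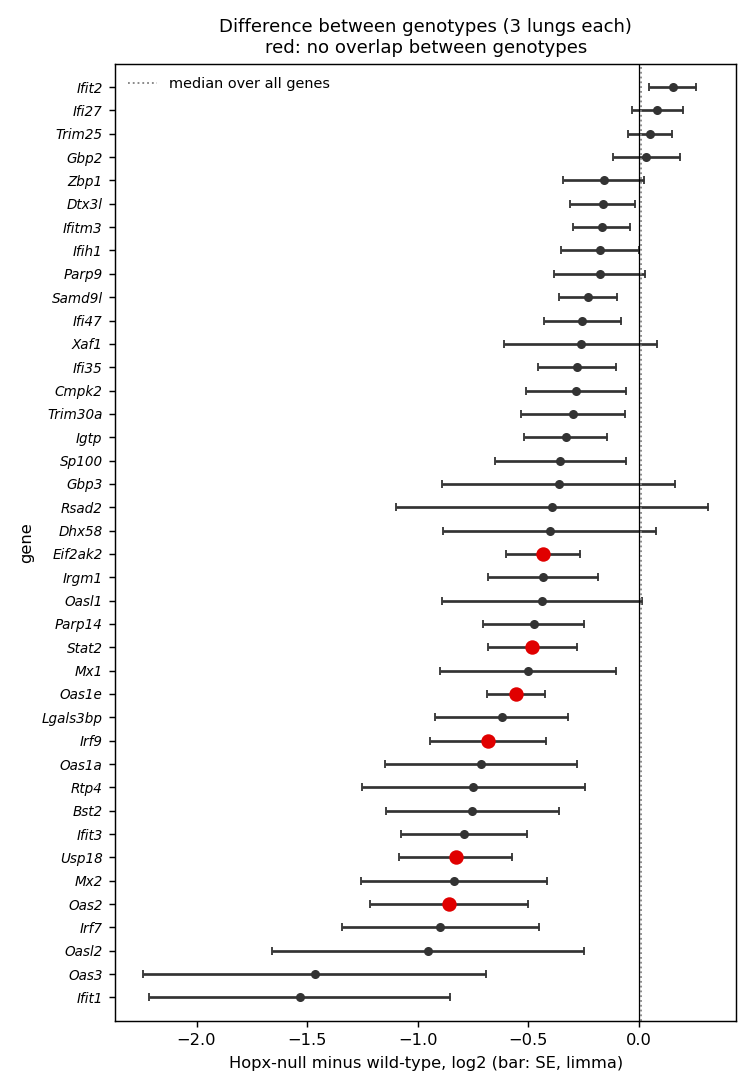
Difference of mean log2 values, Hopx-null minus wild-type, for 40 interferon-stimulated genes with the standard error from limma (3 lungs per genotype); red points mark the 6 genes whose genotypes do not overlap and the dotted line the median over all genes. The points run from -1.53 at Ifit1 to 0.15 at Ifit2, and the longest bars belong to Oas3, Rsad2 and Oasl2.

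The 3 transcription factors among the 40 genes had a lower mean in Hopx-null lungs, and at Irf9 and Stat2, but not at Irf7, the genotypes did not overlap. Irf9, the DNA-binding part of the complex with STAT proteins, read 9.30, 8.86 and 9.94 in wild-type replicates 1 to 3 and 8.83, 8.64 and 8.58 in Hopx-null replicates 1 to 3. All Hopx-null values lay below all wild-type values, with wild-type replicate 2 just above Hopx-null replicate 1, and the difference was -0.68 (SE 0.26). Stat2, which works with IRF9 in that complex, read 8.15, 8.12 and 8.76 in wild-type and 8.06, 7.62 and 7.91 in Hopx-null lungs. The groups did not overlap and differed by -0.48 (SE 0.20), although Hopx-null replicate 1 came close to wild-type replicates 1 and 2. A second Stat2 probe set differed by -0.15, with overlap between the genotypes and wild-type replicate 2 (5.72) the lowest lung. Irf7, which amplifies the response, read 7.52, 6.30 and 8.20 in wild-type and 6.58, 6.56 and 6.20 in Hopx-null lungs. Wild-type replicate 2 fell within the Hopx-null range, while the other wild-type lungs lay above it, and the difference was -0.90 (SE 0.45).

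**Figure D4:**
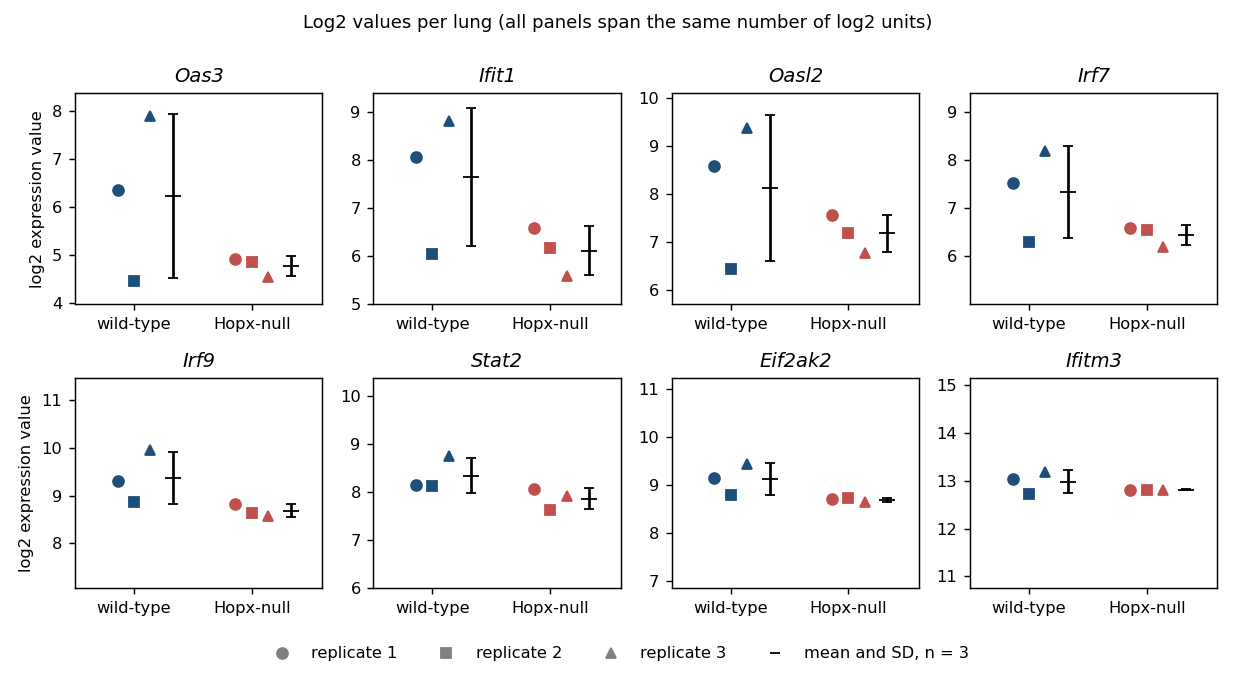
Log2 expression values per lung at 8 interferon-stimulated genes, wild-type in blue and Hopx-null in red, with a symbol for each replicate number and the mean and SD (n = 3) beside them; replicate numbers do not pair the lungs. At all 8 genes the wild-type lungs span more than the distance between the genotype means, and at Irf9, Stat2 and Eif2ak2 the genotypes do not overlap.

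In the branches of ISG15 conjugation and RNA sensing, 4 of 5 genes had a lower mean in Hopx-null lungs. Usp18, the protease that removes ISG15 from proteins and dampens receptor signalling, read 9.30, 9.07 and 9.84 in wild-type and 9.02, 8.35 and 8.35 in Hopx-null lungs. Hopx-null replicates 2 and 3 were the low lungs and replicate 1 lay just under wild-type replicate 2, so the groups did not overlap, and the difference was -0.83 (SE 0.26). Trim25, a ubiquitin and ISG15 ligase, differed by 0.05. Eif2ak2 encodes PKR, a kinase that halts translation on double-stranded RNA. It read 9.14, 8.79 and 9.45 in wild-type and 8.70, 8.73 and 8.64 in Hopx-null lungs, which did not overlap and differed by -0.43 (SE 0.17). Its 2 other probe sets differed by -0.41 and -0.31, with overlap at both. Dhx58, an RNA sensor of the RIG-I family that lacks the signalling domains, read 6.47, 4.88 and 6.88 in wild-type and 5.74, 5.50 and 5.79 in Hopx-null lungs. Wild-type replicate 2 was the lowest of all lungs here, and the difference of -0.40 (SE 0.48) changed sign without wild-type replicate 3. Ifih1, which encodes the RNA sensor MDA5, and the nucleic acid sensor Zbp1 differed by -0.18 and -0.16. A second Zbp1 probe set differed by -0.81. It read 6.04, 4.65 and 7.04 in wild-type and 5.24, 5.24 and 4.82 in Hopx-null lungs.

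The oligoadenylate synthetases are enzymes that make the messenger which activates the RNA-degrading RNase L. The 6 family members measured in the main list of interferon-stimulated genes included those with the largest wild-type SD of that list, Oas3 (1.72) and Oasl2 (1.52). Oas1e had the smallest of the 6 (0.23). All 6 had a lower mean in Hopx-null lungs (median difference -0.79). Other family members were measured in the list of further interferon-stimulated genes described below. Of these, Oas1b, Oas1f and Oas1h differed by -0.68, -0.19 and -0.04, and Oas1c went the other way at 0.15. Oas1f and Oas1h read below the lower quartile of every array. Oas3 read 6.34, 4.46 and 7.89 in wild-type and 4.91, 4.85 and 4.53 in Hopx-null lungs. Wild-type replicate 3 was thus 10.8-fold and replicate 1 3.7-fold above wild-type replicate 2, which was the lowest of all lungs and close to the lower quartile of the arrays. The difference between genotypes was -1.47 (SE 0.77). Oasl2, a relative that also carries ubiquitin-like domains, read 8.58, 6.43 and 9.38 in wild-type and 7.57, 7.19 and 6.78 in Hopx-null lungs, a difference of -0.95 (SE 0.70). Here too wild-type replicate 2 was the lowest lung, 7.69-fold under wild-type replicate 3. Oasl1 read 4.76, 3.82 and 5.82 in wild-type and 4.405, 4.327 and 4.357 in Hopx-null lungs, near the lower quartile of the arrays, and its difference of -0.44 (SE 0.45) changed sign without wild-type replicate 3. Oas1a read 7.28, 6.57 and 8.46 in wild-type and 6.75, 6.79 and 6.61 in Hopx-null lungs, with wild-type replicate 2 lowest and a difference of -0.71 (SE 0.43).

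Oas2 and Oas1e were the members of this family whose genotypes did not overlap. Oas2 read 7.00, 6.29 and 7.84 in wild-type and 6.29, 6.09 and 6.18 in Hopx-null lungs, with wild-type replicate 2 only just above Hopx-null replicate 1. The difference was -0.86 (SE 0.36). Oas1e read 7.14, 6.91 and 7.36 in wild-type and 6.53, 6.66 and 6.55 in Hopx-null lungs. Its wild-type lungs spread little (SD 0.23) and all lay above the Hopx-null lungs, with a difference of -0.56 (SE 0.13). Oas1 paralogues are close copies of each other, so probes of one can bind transcripts of another, and their single values are uncertain. All 6 genes of the family in the main list had the order wild-type replicate 3, 1, 2. In the further list Oas1b and Oas1c had this order, and Oas1f and Oas1h did not. The 6 genes of the main list lie on chromosome 5, as does Hopx (RefSeq, GRCm38.p6).

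The IFIT proteins bind viral RNA and block its translation. Ifit1 read 8.07, 6.04 and 8.81 in wild-type and 6.58, 6.16 and 5.58 in Hopx-null lungs. Wild-type replicates 1 and 3 were 4.09-fold and 6.83-fold above wild-type replicate 2, which lay inside the Hopx-null range, and the difference between genotypes was -1.53 (SE 0.68), the largest of the 40. Ifit3 differed by -0.79 (SE 0.29), again with wild-type replicate 2 inside the Hopx-null range. Ifit2 showed no such order. Its 6 values lay between 9.13 and 9.52, the lowest in wild-type replicate 3 and the highest in Hopx-null replicate 1, with a difference of 0.15 (SE 0.11).

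The dynamin-like GTPases Mx1 and Mx2 trap viral components. Mx1 read 5.99, 5.50 and 7.15 in wild-type and 5.95, 5.51 and 5.69 in Hopx-null lungs, with a difference of -0.50 (SE 0.40). Mx2 read 4.92, 4.13 and 5.84 in wild-type and 4.53, 4.004 and 3.85 in Hopx-null lungs, with a difference of -0.84 (SE 0.42). At both genes wild-type replicate 3 stood alone at the top, and several Mx2 values lay at or below the lower quartile of the arrays. Rsad2 encodes viperin, which makes a chain-terminating nucleotide. It read 11.88, 9.40 and 11.76 in wild-type and 10.96, 11.13 and 9.79 in Hopx-null lungs. Hopx-null replicate 3 joined wild-type replicate 2 as a low lung here, and the Hopx-null SD of 0.73 was the highest of the 40 genes. The difference of -0.39 (SE 0.71) turned positive without wild-type replicate 1 and without Hopx-null replicate 3. Cmpk2, a nucleotide kinase gene next to Rsad2 on chromosome 12, differed by -0.28, with wild-type replicate 3 (8.30) above the other 5 lungs (7.40 to 7.55). At its other probe set wild-type replicate 3 did not stand out. That probe set read 5.96, 6.46 and 6.44 in wild-type and 5.79, 6.01 and 6.44 in Hopx-null lungs.

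Among membrane proteins that hold back virus particles, Ifitm3, which blocks the fusion of entering viruses, read 13.03, 12.72 and 13.18 in wild-type and 12.81, 12.80 and 12.81 in Hopx-null lungs. The Hopx-null lungs had the smallest SD of all 40 genes (0.0055), inside the wild-type range, and the difference was -0.17 (SE 0.13). Bst2, or tetherin, which holds budding particles at the cell surface, read 8.25, 8.63 and 9.72 in wild-type and 7.69, 8.49 and 8.17 in Hopx-null lungs. Wild-type replicate 3 was high, wild-type replicate 1 lay below wild-type replicate 2 and inside the Hopx-null range, and the difference was -0.75 (SE 0.39).

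Among the GTPases that respond strongly to type II interferon, Gbp3 read 8.54, 7.00 and 9.23 in wild-type and 8.12, 7.97 and 7.60 in Hopx-null lungs. Wild-type replicate 2 was the lowest lung, and the difference of -0.36 (SE 0.53) changed sign without wild-type replicate 3. Irgm1, Igtp and Ifi47 differed by -0.43, -0.33 and -0.25, and Gbp2 by 0.03. At all 5 of these genes wild-type replicate 2 was the lowest of the wild-type lungs. Rtp4, a chaperone-like protein, read 9.32, 7.79 and 9.86 in wild-type and 8.55, 8.27 and 7.91 in Hopx-null lungs. Wild-type replicates 1 and 3 were clearly above the other lungs, and the difference was -0.75 (SE 0.50). Of the remaining genes, Lgals3bp, Sp100, Trim30a, Ifi35, Xaf1 and Samd9l had differences between -0.62 and -0.23, and Ifi27 had 0.08. The ADP-ribosyltransferase genes Parp14 and Parp9 and the ubiquitin ligase gene Dtx3l, whose product pairs with PARP9, differed by -0.48, -0.18 and -0.16.

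For 16 of the 40 genes, 21 further probe sets had not been used. Of these, 16 had a lower mean in Hopx-null lungs, with a median difference of -0.23, and wild-type replicate 3 was above wild-type replicate 2 at 20 of 21. At the 2 other Rsad2 probe sets wild-type replicates 1 and 3 were again above wild-type replicate 2. The 2 other Trim25 probe sets differed by 0.31 and -0.06. At the former the genotypes did not overlap, with Hopx-null lungs higher (10.53 to 10.78) than wild-type lungs (10.25 to 10.49). Among the 21, the genotypes did not overlap at 1 probe set in each direction. This stands against 4.31% of all genes lower and 6.21% higher without overlap.

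Genes upstream of the response had the order wild-type replicate 3, 1, 2 at 1 of 10 interferon genes, 1 of 6 receptor genes, 6 of 13 Janus kinase and signal transducer genes and 5 of 16 genes of nucleic acid sensing, against 18.4% of all genes. None of these passed limma's adjusted threshold and 0 had an unadjusted p under 0.05. Of 10 measured interferon genes, 9 lay below the median of all probe sets, with values between 2.28 and 5.33, and the median difference of the 10 was -0.03. Ifnz, the one above it, read 6.67, 7.05 and 7.18 in wild-type and 6.94, 6.54 and 7.28 in Hopx-null lungs. The receptor gene Ifnar1 read 9.49, 9.57 and 9.36 in wild-type and 9.62, 9.45 and 9.58 in Hopx-null lungs, and Ifnar2 read 9.73, 9.52 and 9.59 and 9.40, 9.74 and 9.78. Wild-type replicate 3 was the lowest of the 6 lungs at Ifnar1, and differences were 0.08 (95% interval -0.15 to 0.31) and 0.03 (95% interval -0.28 to 0.33). The receptor chain of type II interferon, Ifngr1, read 9.71, 9.38 and 10.05 in wild-type and 9.38, 9.37 and 9.66 in Hopx-null lungs and had the order of the stimulated genes, with a difference of -0.24. Of 13 measured Janus kinase and signal transducer genes, 4 were lower and 9 higher in Hopx-null lungs, with a median of 0.02. Irf1, a rapid target of type II interferon, read 9.28, 9.08 and 9.36 in wild-type and 9.21, 9.36 and 9.21 in Hopx-null lungs, with wild-type replicate 2 lowest. It differed by 0.02, Tyk2 by 0.25 and the myeloid factor Irf8 by 0.41. Of 16 measured genes of nucleic acid sensing, 6 were lower and 10 higher, with Adar, an RNA-editing enzyme, at -0.29 and Sting1, the adaptor of DNA sensing, at 0.18.

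A list of further interferon-stimulated genes had 50 measured genes. None passed limma's adjusted threshold (3 had an unadjusted p under 0.05, all lower), 44 were lower and 6 higher in Hopx-null lungs, and the median difference was -0.19. The order wild-type replicate 3, 1, 2 was seen at 34 of 50, against 18.4% of all genes, and the median SD was 0.28 among wild-type and 0.17 among Hopx-null lungs. Ifi27l2a, a small mitochondrial protein gene, read 9.64, 7.31 and 10.07 in wild-type and 8.33, 7.84 and 8.01 in Hopx-null lungs, with wild-type replicate 2 the lowest lung and a difference of -0.95. Irgm2 differed by -0.82. Class I antigen presentation, which interferon also induces, had 10 of 12 genes lower with a median of -0.12, of which none passed and 0 had an unadjusted p under 0.05, and wild-type replicate 2 was the lowest wild-type lung at all 12, against 32.3% of all genes. Tap1, Psmb8, Psmb9 and Nlrc5 stood both in this list and in that of further interferon-stimulated genes, so the lists are not independent. H2-K1 and H2-D1, the class I heavy chains, differed by -0.35 and -0.30. Targets of NF-kappaB, the other main arm of innate immunity, had 7 of 16 lower and 9 higher with a median of 0.04, and wild-type replicate 2 was the lowest wild-type lung at 5 of 16, a share near that of all genes. Nfkbia differed by -0.17 and Tnfaip3 by 0.16, and no gene of the list passed (1 had an unadjusted p under 0.05).

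**Figure D5:**
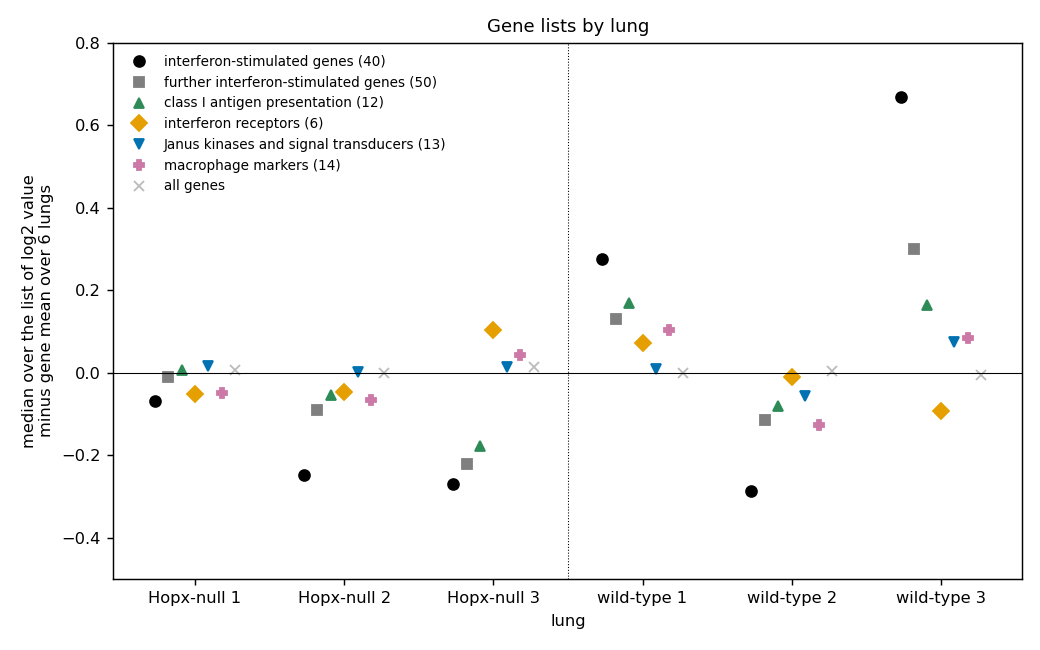
Median over each gene list of the log2 value minus the gene's mean over 6 lungs (vertical), by lung (horizontal), for interferon-stimulated genes, related lists, macrophage markers and all genes, with the number of measured genes in brackets. Both lists of interferon-stimulated genes are highest in wild-type replicate 3 (0.67 and 0.30), while the receptor list is lowest there (-0.09).

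Immune cells and sample quality were set beside this order. In bulk lung RNA, fewer cells of a type and less transcript per cell cannot be told apart. Macrophage markers, 13 of 14 above the median of all probe sets, had list means between 9.25 and 9.42 in Hopx-null and between 9.21 and 9.40 in wild-type lungs. Wild-type replicate 2 was the lowest wild-type lung at 11 of 14, against 32.3% of all genes. The order wild-type replicate 3, 1, 2 was seen at 9 of 14, against 18.4% of all genes, and the median deviations of the list were 0.10, -0.13 and 0.08 in wild-type replicates 1 to 3. Macrophage markers thus shared the low wild-type replicate 2 with the interferon-stimulated genes, over a smaller range. Wild-type replicate 3 did not stand above replicate 1 in the list's median deviation, and Hopx-null replicate 3 had the highest list mean (9.42). Between genotypes 6 of the 14 were lower and 8 higher in Hopx-null lungs, with a median difference of 0.03. None passed limma's adjusted threshold and 2, both lower, had an unadjusted p under 0.05, against 1.64% of all genes lower at that level. The complement genes C1qc and C1qb differed by -0.38 and -0.29, and Cd68, a lysosomal protein of macrophages, by 0.28. All 10 T and NK cell markers measured lay below the median of all probe sets, with list means between 5.03 and 5.35 in Hopx-null and between 5.15 and 5.56 in wild-type lungs, the highest in wild-type replicate 3. Of these, 9 were lower and 1 higher in Hopx-null lungs, with a median difference of -0.14. None passed limma's adjusted threshold and 1, lower, had an unadjusted p under 0.05. Of 7 plasmacytoid dendritic cell markers 3 were lower and 4 higher in Hopx-null lungs, and the list's median deviation in wild-type replicate 3 was -0.05. Siglech (5.84) and Bst2, which is also an interferon-stimulated gene, were highest in that lung, whereas Irf8 (7.62), Spib (5.23), Ccr9 (4.22) and Tcf4 (12.54) were lowest there. Neutrophil markers had list means between 8.85 and 9.29 in Hopx-null and between 8.90 and 9.09 in wild-type lungs. The part of these cells in the pattern was not tested. Both extremes among the wild-type lungs, replicate 2 (lowest) and replicate 3 (highest), expressed the Y-linked Eif2s3y, at 11.72 and 11.56. The other 4 lungs read 2.88 to 3.13. The Hopx-null lungs thus all lacked this signal, which 2 wild-type lungs had, so sex and genotype partly coincide, and the part of sex in the differences between genotypes was not tested. Wild-type replicate 1 was the only wild-type lung without the signal, and 1 such lung cannot separate sex from genotype. With that lung left out, the signal and genotype coincided fully. The 3' to 5' difference of the actin control was 1.15, 1.25 and 1.17 in wild-type replicates 1 to 3 and 1.22, 1.19 and 1.51 in Hopx-null replicates 1 to 3. That of the Gapdh control was 1.459, 1.597 and 1.418 in wild-type and 1.58, 1.47 and 1.72 in Hopx-null lungs. A larger difference means more signal towards the 3' end. Wild-type replicate 2 had the largest of the wild-type values at both controls, and the wild-type order at Gapdh was the reverse of that of the interferon-stimulated genes. The part of RNA quality in the pattern was not tested.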

How the data were processed

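The 43 genes and all lists were chosen with earlier results of these data known. Total RNA was amplified from a poly(T) primer and read on single-channel Affymetrix arrays, per the labels' protocols. The deposited values were read as log2 values, inferred from their range (45101 probe sets). Per the submitters' processing notes, RMA and Partek 6.6 were used, their steps unstated. RMA sets all arrays to one distribution, so a shift of most transcripts would not be seen. After leaving out 64 controls, 45037 probe sets were fitted without a filter with limma 3.58.1 in R 4.3.3 (lmFit, eBayes, Benjamini-Hochberg, threshold 0.05). The platform annotation named a single gene at 34945 probe sets, more than 1 at 932 and none at 9160. Of the 40 genes measured, 33 were brighter than the median probe set. Values in every lung are given for the 14 genes with the largest wild-type SD and for genes without overlap. They are also given for Irf7, Irf9, Stat2, Eif2ak2, Ifitm3 and Bst2, and from other lists for Ifnar1, Ifnar2 and Irf1. For up to 2 genes of another list with the largest difference above that median, at least the difference is given. Other genes named with values were chosen after these were seen. Precision is limited by the number of arrays. The labels call the lungs biological replicates without naming litters. The fit was tested on simulated data.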

Additional observations from a re-analysis of the deposited data

How the results depend on the processing

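Quantile normalization applied again, another choice of probe set and the mean over all probe sets of a gene left 36 of 40 genes lower in Hopx-null lungs. The median difference was between -0.43 and -0.41, and 4 to 6 genes were lower without overlap, against 4.08% to 4.44% of all genes. With dim genes left out these were 29 of 33 genes, -0.36 and 5, with no share over all genes computed. With each lung left out in turn, 32 to 38 genes were lower and the median difference ran from -0.68 to -0.17. The median wild-type SD ran from 0.26 to 0.64. The number without overlap in either direction ran from 7 to 33 (6 with all lungs). Those lower without overlap numbered 6 to 32 (6 with all lungs). The share of all genes lower without overlap ran from 7.45% to 11.7%, and was 4.31% with all lungs. The genes whose sign differed were Gbp2, Rsad2, Ifi27, Trim25, Oasl1, Dhx58, Xaf1 and Gbp3, at most 4 in any 1 of these fits. Limma called 2 probe sets with repeated normalization, dim probe sets left out, trend and robust options or array weights, and 1 to 23 with 1 lung left out. With the replicate number as a block it called 1. The numbers are not known to pair the lungs: same-numbered lungs deviated together with correlations of -0.0958, -0.121 and 0.183, and 2 of 6 lungs correlated best with their own number. No interferon-stimulated gene passed in any of these fits. Signal over background limits Mx2, Oasl1 and Oas3, which had values near the lower quartile of the arrays.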

Other observations

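Single features with their own pattern were seen near the interferon-stimulated genes, chosen after their values were seen. A second probe set of Xaf1, a gene of apoptosis control, read 9.14 in wild-type replicate 1, 5.47 in wild-type replicate 3, 3.88 in wild-type replicate 2 and 4.01, 4.52 and 4.62 in Hopx-null replicates 1 to 3. The other Xaf1 probe set read 9.34, 9.08 and 10.48 in wild-type replicates 1 to 3, so wild-type replicate 1 stood out at 1 probe set of the gene and not at the other.

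Ifi202b, a gene of the DNA-sensing p200 family, read 3.36, 5.59 and 8.08 in wild-type and 3.36, 3.51 and 3.42 in Hopx-null lungs. It was high in wild-type replicates 2 and 3 and near the lower part of the range in the other 4 lungs, which is not the order of the interferon-stimulated genes. Its relative Ifi204 read 5.70, 4.34 and 6.49 in wild-type and 4.44, 4.31 and 4.50 in Hopx-null lungs, with the order wild-type replicate 3, 1, 2. B cell markers were lowest in wild-type replicate 3, with a list mean of 5.64 against 5.97 to 6.50 in the other 5 lungs, and Ighm and Cd79b differed between genotypes by 0.47 and 0.35, neither passing limma (0 of 6 listed genes had an unadjusted p under 0.05). Mast cell markers were lower in Hopx-null lungs at 4 of 7 genes and higher at 3, with Cma1 at -0.29, Tpsb2 at -0.24 and Fcer1a at 0.27. Neutrophil markers were lower at 2 of 8 and higher at 6, with a median difference of 0.05, Camp at 0.54, Ngp at 0.42 and Mpo at -0.46, again with none past the threshold (0 of 7 mast cell and 1 of 8 neutrophil markers had an unadjusted p under 0.05).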
